A study of Mus musculus with 16 samples.

Results

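Accessible chromatin was compared between the livers of female mice killed 3 h after an injection of TCPOBOP and those of vehicle-injected females, the experiment coded G91. It comprises 4 of the 16 DNase-seq pools of a study of male and female mice at 3 h and 27 h, chosen by the code in their peak names: 2 TCPOBOP pools and 2 vehicle pools. All were CD-1 mice received at 7 weeks of age; the treated females were given 3 mg/kg TCPOBOP intraperitoneally and the controls the solvent alone, 1% DMSO in corn oil. Each pool combined the fragments of 3 to 5 mice, so the spread between mice within a pool cannot be seen. A pool number names a pool and pairs nothing across the groups. Whole liver nuclei were used, and a change in the mix of cell types cannot be told apart from a change within hepatocytes.

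TCPOBOP is a potent agonist ligand of the nuclear receptor CAR (constitutive androstane receptor), which resting hepatocytes hold in the cytoplasm. On activation CAR moves to the nucleus, binds DNA together with the retinoid X receptor, and drives genes of foreign-compound metabolism, of which Cyp2b10 is the classical target. DNase I cuts preferentially where nucleosomes have been displaced, so a DNase-hypersensitive site marks an active or poised enhancer, promoter or insulator.

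The 4 libraries held 16948011 and 16216180 tags after vehicle and 20704920 and 19948773 after TCPOBOP, so the treated pools were the deeper ones. They gave 29014 and 29828 autosomal peaks after vehicle and 32298 and 32414 after TCPOBOP. Peaks of all 16 pools that overlapped were merged into 59896 autosomal regions, in coordinates of the mouse build mm9, and 37000 of these held a peak in at least 1 of the 4 pools. On the Y chromosome each female pool listed 1 peak, against 62 to 85 in the male pools, which fits the labels of sex. No annotation of mm9 was used, so markers of liver cell types were not checked and regions were not assigned to genes by distance.

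Peak presence was compared first. Peaks were present in all 4 pools at 22398 regions. A peak in both TCPOBOP pools and in neither vehicle pool, called gained here, was found at 1496 regions, 4.04% of the 37000. The reverse, called lost, was found at 374 regions (1.01%). A further 4298 regions had a peak in 1 TCPOBOP pool and no vehicle pool, and 2137 had one in 1 vehicle pool and no TCPOBOP pool. As shares of the regions with a peak in both pools of a group, 5.67% (exact 95% CI 5.39 to 5.95, counting error only) were gained and 1.54% (CI 1.39 to 1.71) were lost. Depth moved with treatment, and with every list trimmed to its 29014 best peaks the counts were 889 gained and 690 lost.

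**Figure D1:**
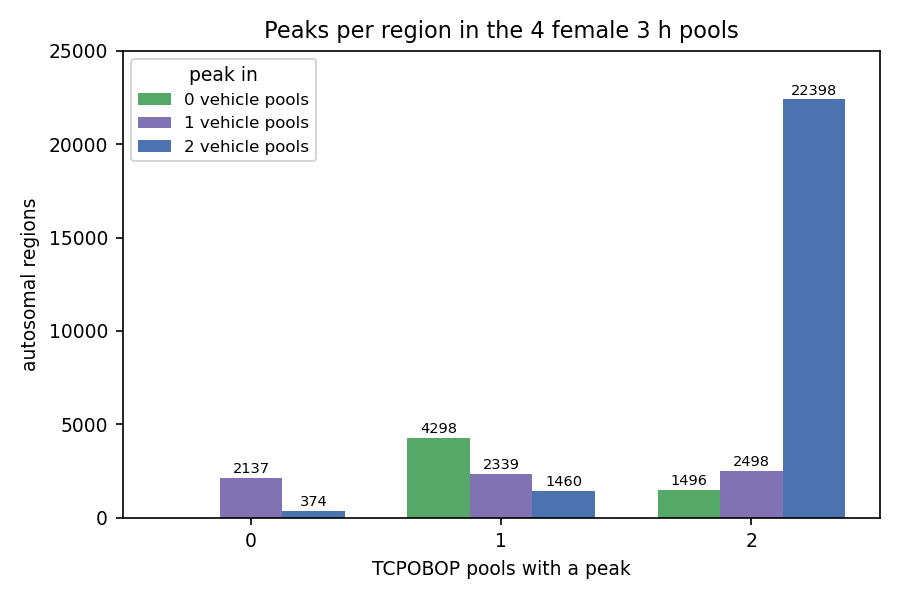
Number of autosomal regions (y axis) by the number of TCPOBOP pools with a peak (x axis) and of vehicle pools with a peak (bar colour) in the 4 female 3 h pools. Most regions (22398) had a peak in all 4 pools, and 1496 gained regions stand beside 374 lost ones.

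Most gained regions were weak. The median summit pileup, that is the number of extended tags over the highest point of a peak, was 0.863 per 1000000 tags at gained regions, against 1.78 at all regions with a peak in both TCPOBOP pools. At 1281 of the 1496 (85.6%) a peak had been called in a vehicle pool of another experiment, against 98.7% of all regions with a peak in both TCPOBOP pools, and 30 had no peak in any other pool of the study. Absence from the vehicle lists of G91 therefore does not mean a site closed in other untreated livers.

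When the peaks were required to be among the 20000 best of both pools by −log10 q, 108 gained regions (0.292%) and 8 lost regions (0.0216%) remained. Leaving out a pool, which lets the group be represented by 1 list, raised these to between 213 and 345 gained and between 74 and 103 lost. The strong gained regions had a median scaled pileup of 1.61 and a median authors' fold over local background of 7.18. In the male 3 h, female 27 h and male 27 h experiments, 85, 100 and 104 of the 108 had a peak in both TCPOBOP pools (78.7%, 92.6% and 96.3%). The shares over all regions with a peak in both G91 TCPOBOP pools were 89.2%, 90.2% and 94.2%. The 108 met the definition of gained again in 47, 52 and 30 cases (43.5%, 48.1% and 27.8%), against 3.06%, 2.69% and 0.754% of all such regions. A peak in some vehicle pool elsewhere was present at 78 (72.2%, against 98.7%).

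The strong gained region of best rank lay on chromosome 10, 80420505 to 80421154, with scaled pileups of 11.7 and 8.57 in the TCPOBOP pools. Its authors' folds over background were 9.28 and 7.03. No other strong gained region named here was as tall. Chromosome 19, 39356867 to 39357740, held 4.54 and 5.81, and chromosome 7, 87598009 to 87598436, held 3.77 and 3.81. The regions at chromosome 4, 19237874 to 19239234, with 2.95 and 3.01, and at chromosome 4, 25298813 to 25299549, with 2.75 and 2.41, were lower but stood further above their local background, with folds of 11.4 and 13.1 and of 15.3 and 13.3. Chromosome 19, 39182842 to 39183655, was similar at 2.70 and 2.76, with folds of 12.8 and 14.1. At these last 3 regions the TCPOBOP pools were close to each other. Chromosome 10, 60776259 to 60776872, held 3.24 and 3.01, and chromosome 3, 67115124 to 67115981, 2.17 and 2.51. In the male 3 h experiment all 8 had a peak in both TCPOBOP pools, as did 89.2% of all regions with a peak in both G91 TCPOBOP pools. In neither male 3 h vehicle pool was there a peak at 5 of them, and the region at chromosome 19, 39182842, had one in both. Of the 108 strong gained regions 65 had none there, against 2182 of the 26392 with a peak in both G91 TCPOBOP pools. The best-ranked region had peaks in both 27 h vehicle pools of each sex, 1.68 and 1.83 in females and 1.54 and 1.93 in males. Those at chromosome 4, 19237874, and chromosome 7, 87598009, had a peak in no vehicle pool of the study.

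The height of the peaks was then compared at the 22398 regions with a peak in all 4 pools. The highest summit pileup of each region was scaled to 1000000 tags, put on a log2 scale, centred on the median of its pool and tested with limma, with the Benjamini-Hochberg adjusted p held below 0.05. Pileup was higher after TCPOBOP at 296 regions (1.32%) and lower at 17 (0.0759%), together 1.4% of those tested. Among all regions tested the median log2 change was 0.01, which the centring largely fixes, so it cannot show a shift common to all regions. The 296 higher regions had a median change of 1.04 and a range from 0.60 to 3.12, 169 of them rose by more than 1 and 8 by more than 2. In all 296 both TCPOBOP pools stood above both vehicle pools, an order seen in 16.9% of all regions tested.

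The number of calls depended on which pools were used. Without vehicle pool 1, vehicle pool 2, TCPOBOP pool 1 or TCPOBOP pool 2 the higher regions numbered 125, 140, 187 and 175 and the lower regions 1, 5, 24 and 53. Of the 296, 66 were called in each of these 4 fits and 72 in none of them. With the spread taken from the 4 pools alone 185 regions were higher and 7 lower.

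**Figure D2:**
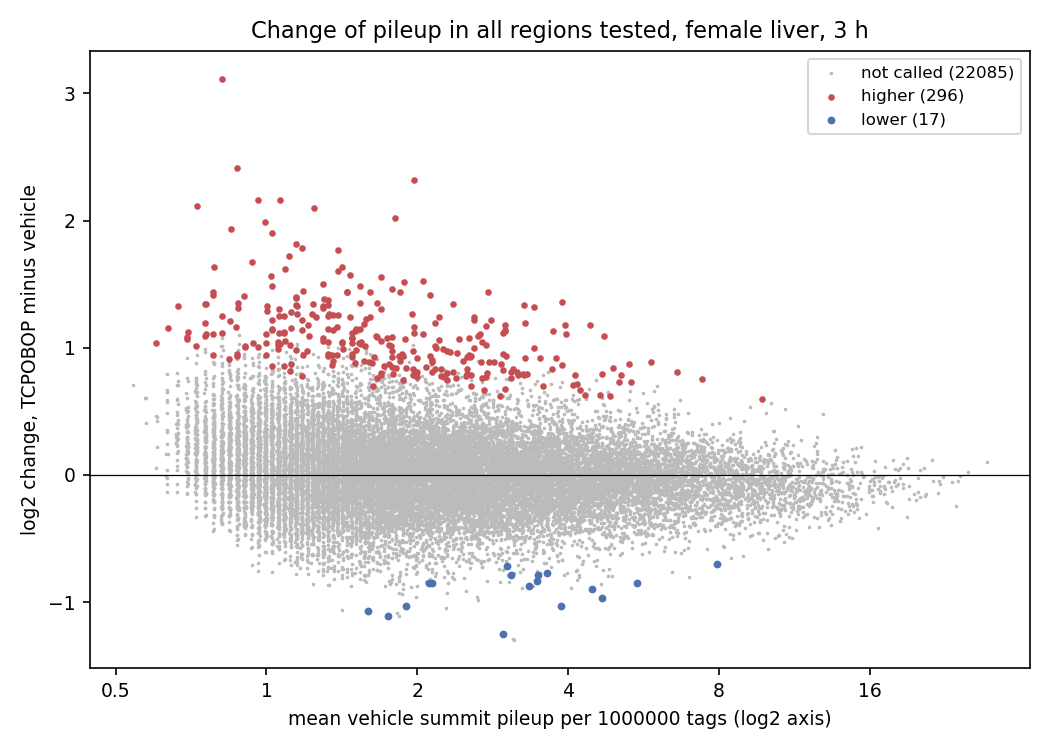
Log2 change after TCPOBOP (y axis) against mean vehicle pileup per 1000000 tags (x axis, log2 scale) for each of the 22398 regions tested, with the 296 higher regions in red and the 17 lower ones in blue. The largest rises, up to 3.12, are at regions of low vehicle pileup, and the lower regions do not pass −1.25.

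The median vehicle pileup of the higher regions was 1.65 per 1000000 tags, against 2.03 for all regions tested and 3.35 for the 17 lower ones. After TCPOBOP the medians were 3.50, 2.04 and 1.80. Vehicle pileup is part of the change by which the regions were called, so these levels are a description only. A region had to hold a peak in all 4 pools to be tested, which bounds the low end. Peaks at the higher regions were also wider after treatment, with a median of 588 bp against 429 bp after vehicle, while over all regions tested the medians were 537 and 492 bp. The mean summit position moved by a median of 38 bp between the groups, against 28.5 bp over all regions. A width follows the pileup of the same peak, so it is no separate support.

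The most changed region was on chromosome 7, 26672712 to 26673610. It held 0.826 and 0.802 tags per 1000000 in the vehicle pools and 6.13 and 7.77 in the TCPOBOP pools, an 8.66-fold rise (log2 3.12 ± 0.18, limma adjusted p = 3.54e-12). The error is limma's SE, here and below, and each group has n = 2 pools. The groups were far apart. On chromosome 7, 26679889 to 26680779, the pileup was 0.944 and 0.802 after vehicle and 4.73 and 4.36 after TCPOBOP (log2 2.42 ± 0.19, limma adjusted p = 6.48e-09). Between these, at 26674300 to 26675132, it was 1.06 and 0.925 after vehicle and 3.53 and 4.21 after TCPOBOP (log2 1.99 ± 0.20, limma adjusted p = 4.3e-07). All 3 are placed at Cyp2b10 from general knowledge of the mouse map, with no distance measured. None of their groups overlapped, as at all 296 higher regions and at 36.1% of all regions tested.

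Outside that locus the lowest p was at chromosome 10, 80421722 to 80422333, where pileup was 1.89 and 1.73 after vehicle and 6.81 and 7.57 after TCPOBOP (log2 2.02 ± 0.17, limma adjusted p = 7.64e-09). It lies directly beside the strong gained region of best rank. The tallest of the 13 higher regions named by the rule was on chromosome 18, 68650572 to 68651869, at 1.71 and 2.22 after vehicle and 10.4 and 8.67 after TCPOBOP (log2 2.32 ± 0.21, limma adjusted p = 6.15e-08). Both groups were again wide apart.

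The other 8 rose by log2 1.33 to 2.16. Chromosome 9 carried 2 of them, 99071443 to 99072151, from 1.12 and 0.802 to 3.96 and 4.36, and 98318409 to 98319244, from 1.00 and 1.48 to 6.09 and 4.31. Chromosome 4 also carried 2, 117015129 to 117017283, from 1.18 and 1.60 to 4.15 and 5.06, and 24547230 to 24548340, from 1.00 and 1.05 to 3.48 and 4.06. At these 4 the groups lay well apart. At chromosome 11, 100924423 to 100925620, pileup went from 1.36 and 1.42 to 4.40 and 3.86, and at chromosome 13, 34346549 to 34347425, from 1.42 in both vehicle pools to 4.59 and 4.06. Neither pair overlapped. Chromosome 6, 67099388 to 67100258, started from a higher level, 2.83 and 3.70, and reached 7.92 and 8.07. Chromosome 18, 68340009 to 68341050, held 0.649 and 1.48 after vehicle, against 4.59 and 4.01 after TCPOBOP. The 13 were chosen for smallest p or largest change in these same data, which favours keeping a call when the fit is altered. Each of the 13 kept its call under all 15 alternatives tried (14 at the regions 99071443 and 24547230, which lack a peak in some list), left-out pools included.

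**Figure D3:**
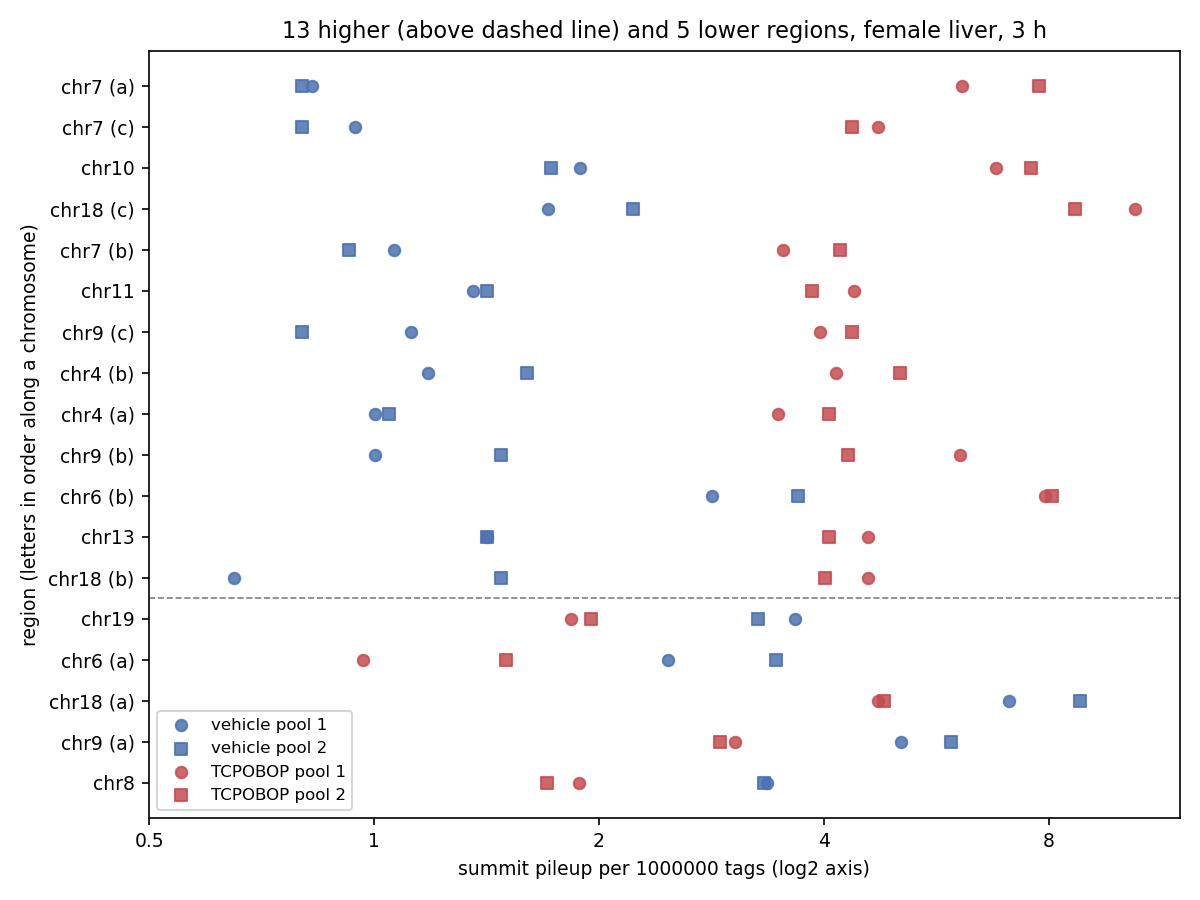
Summit pileup per 1000000 tags (x axis, log2 scale) in each of the 4 pools at the 13 higher and 5 lower regions named by the rule (y axis, by chromosome and ordered by p). Blue symbols are vehicle pools and red ones TCPOBOP pools. In none of the 18 regions do the groups overlap, which also holds for 36.1% of all regions tested.

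The 17 lower regions had a median change of log2 −0.85, and 5 fell by more than 1. The lowest p was at chromosome 19, 36738229 to 36739171, with 3.66 and 3.27 after vehicle and 1.84 and 1.96 after TCPOBOP (log2 −0.84 ± 0.18, limma adjusted p = 0.00922). The largest fall was at chromosome 6, 24297780 to 24299138, from 2.48 and 3.45 to 0.966 and 1.50 (log2 −1.25 ± 0.27, limma adjusted p = 0.0115). Chromosome 18, 65382195 to 65382849, was the tallest, at 7.08 and 8.82 after vehicle and 4.73 and 4.81 after TCPOBOP. The groups did not overlap at any of the 3, as at all 17 lower regions and at 36.1% of all regions tested. Chromosome 9, 15277359 to 15278136, fell from 5.07 and 5.92 to 3.04 and 2.91, and chromosome 8, 13471083 to 13472791, from 3.36 and 3.33 to 1.88 and 1.70. None of the 17 lower regions was called in more than 2 of the 4 fits that left out a pool. At each of these 5, leaving out vehicle pool 1 ended the call.

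Of the 8 strong lost regions the one of best rank was chromosome 9, 106147569 to 106148005, with 2.66 and 2.53 after vehicle. It was followed by chromosome 1, 173039447 to 173040375, with 2.95 and 2.65, by chromosome 13, 52007824 to 52008310, with 1.77 and 2.22, and by chromosome 16, 22914410 to 22914863, with 1.59 and 2.22. No peak was called at any of them in the TCPOBOP pools of G91. In other experiments the first had peaks after TCPOBOP, in 1 of the male 3 h pools and in both pools of each sex at 27 h.

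Nearness to other higher regions was then counted. Of the 296 higher regions 69 (23.3%) had another higher region within 50 kb. Such a neighbour was present for 18 of the 108 strong gained regions (16.7%), for 99 of the 1496 gained regions (6.62%), for 10 of the 374 lost (2.67%), for 2 of the 8 strong lost (25%), for 0 of the 17 lower and for 712 of the 22085 regions tested and not called (3.22%). Runs of at least 3 higher or gained regions with gaps of at most 50 kb numbered 39, and held 63 higher and 75 gained regions. They spanned 5.7 to 130.0 kb. These counts are a description, and no test of nearness was made.

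Gene names are attached to 8 of these stretches from general knowledge of the mouse map, as background; no distance to a gene was measured. The Cyp2b10 stretch, 42.5 kb on chromosome 7 from 26672712 to 26715240, is named for the cytochrome P450 that is the textbook CAR target. It held 10 regions, with the 3 higher ones above and 2 gained ones at 26676827 to 26677554, with 2.51 and 2.96, and at 26713932 to 26715240, with 1.26 and 1.05 after TCPOBOP. A further region at 26681892 to 26682863 held 5.51 and 7.22 after TCPOBOP, next to the leading region in height, but was not tested because only vehicle pool 2 had a peak there, at 0.863. The 6 regions with TCPOBOP signal above 2 tags per 1000000 all lay between the start of the stretch and 26682863.

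The Cyp2c29 stretch on chromosome 19, 39356867 to 39408416, is named for another drug-metabolising P450. Its 9 regions included the strong gained one described above, and beside it 39358788 to 39359596, with no peak in vehicle pool 1, 1.36 in vehicle pool 2 and 5.55 and 5.67 after TCPOBOP. At 39359845 to 39360656 pileup rose from 1.36 and 1.54 to 3.43 and 4.31 (log2 1.44 ± 0.21, limma adjusted p = 0.000161). At 39361258 to 39362043 it rose from 2.66 and 2.47 to 4.15 and 4.51 (log2 0.79 ± 0.20, limma adjusted p = 0.0388), a call that leaving out any 1 of the 4 pools ended. The neighbouring site at 39363512 to 39363916 was lost, with 1.83 and 1.67 after vehicle only. The stretch thus held rises beside a site with no called peak after TCPOBOP, where a fall in signal was not measured.

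The Cyp3a11 stretch on chromosome 5, 146664374 to 146715479, is named for a P450 of the subfamily that in humans clears many drugs. At 146691031 to 146691952 pileup rose from 1.30 and 1.42 to 2.99 and 3.36 (log2 1.26 ± 0.22, limma adjusted p = 0.00149). At 146711784 to 146712652 it was 2.24 and 3.64 after vehicle and 5.75 and 4.56 after TCPOBOP (log2 0.87 ± 0.21, limma adjusted p = 0.0222), which was lost without vehicle pool 1 or TCPOBOP pool 1. Of its other 5 regions 2 were gained, 2 did not pass the test and 1 was not tested.

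Por, the reductase that passes electrons to all microsomal P450s, lies in the stretch with the most higher regions, on chromosome 5, 136115694 to 136203175, with 4 higher and 1 gained of 12. The firmest was 136154385 to 136154891, where pileup was 2.42 and 3.52 after vehicle and 6.42 and 5.97 after TCPOBOP (log2 1.12 ± 0.17, limma adjusted p = 0.000334). The gained site, 136158349 to 136159308, had 2.85 and 2.76 after TCPOBOP. The tallest site of the stretch, 136164258 to 136165504, was 16.8 and 19.7 after vehicle and 17.0 and 16.9 after TCPOBOP, a change of log2 −0.07 ± 0.14 that did not pass the test (limma adjusted p = 0.904). Calls at 136115694 and 136202340 (log2 1.04 and 0.98) were each lost without any 1 of the 4 pools, and that at 136118620 (log2 1.08) without either vehicle pool or without TCPOBOP pool 1.

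Alas1, the rate-limiting enzyme that makes the first precursor of haem, the cofactor of P450s, lies in a stretch on chromosome 9, 106133118 to 106168323. Pileup rose at 106165590 to 106166283, from 2.83 and 4.01 to 7.24 and 9.37 (log2 1.32 ± 0.22, limma adjusted p = 0.000583), and at 106167728 to 106168323, from 2.60 and 2.59 to 5.60 and 6.47 (log2 1.25 ± 0.21, limma adjusted p = 0.000896). The former call was lost without vehicle pool 1 (limma adjusted p = 0.0733). A region at 106133118 to 106135191 was gained, with 2.66 and 3.21. Between them lay the strong lost region of best rank and a second lost one, 106138375 to 106138863, with 1.36 and 1.85 after vehicle. With no called peak there after TCPOBOP, a fall in signal at these lost sites was not measured. At 106149145 to 106150558 pileup was 3.07 and 2.90 after vehicle and 3.28 and 3.31 after TCPOBOP (log2 0.17 ± 0.18, limma adjusted p = 0.786).

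**Figure D4:**
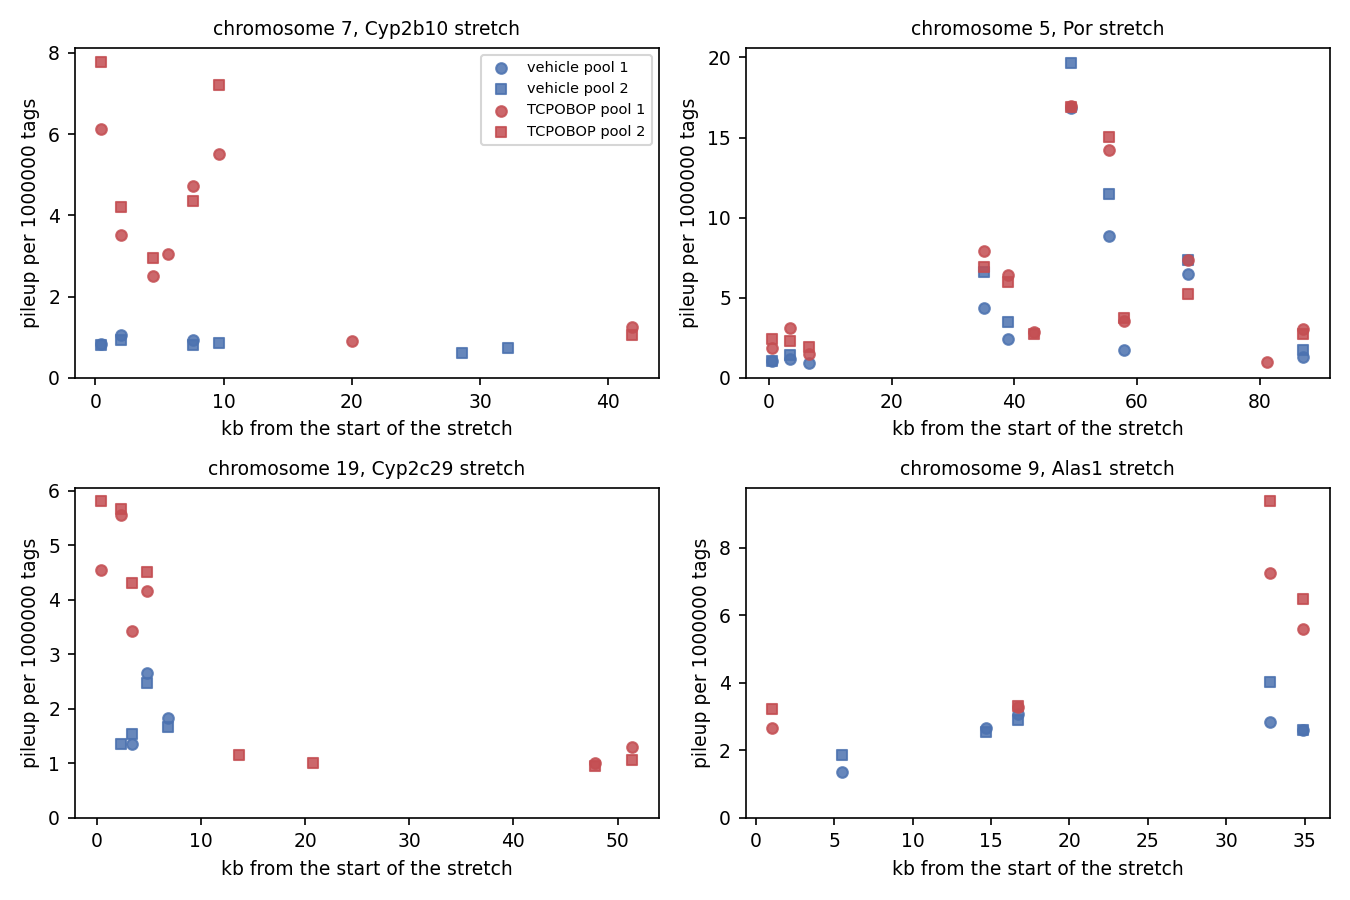
Summit pileup per 1000000 tags (y axis) of each region in the 4 pools along the stretches at Cyp2b10, Por, Cyp2c29 and Alas1, by distance in kb from the start of the stretch (x axis). A missing symbol means no peak in that pool. At Cyp2b10 the vehicle pools do not pass 1.06 at any region, and at Por the tallest region, near 17 to 20, has overlapping groups.

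A stretch on chromosome 10, 80420505 to 80451338, lies near Gadd45b, a stress-response gene induced early by CAR agonists in mouse liver. Beside the strong gained region and its neighbour described above, the region at 80448303 to 80449905 rose from 0.826 and 1.48 to 2.17 and 3.11 (log2 1.26 ± 0.26, limma adjusted p = 0.00649), a call lost without vehicle pool 1 or TCPOBOP pool 2. At 80437903 to 80438723, between them, pileup was 0.944 and 1.60 after vehicle and 1.06 and 1.55 after TCPOBOP, so the groups overlapped. The stretch at Tsku, which encodes a small secreted leucine-rich protein, spans 14.4 kb on chromosome 7. There 105495896 to 105496844 rose from 2.42 and 2.78 to 4.68 and 5.46 (log2 1.00 ± 0.17, limma adjusted p = 0.00121), and 105509360 to 105510344 from 1.42 and 1.67 to 3.09 and 3.11 (log2 1.04 ± 0.20, limma adjusted p = 0.00312). The second was lost without vehicle pool 1.

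G6pc, the catalytic subunit of the phosphatase that releases glucose from liver, lies in a stretch on chromosome 11, 101212282 to 101253270. Its tallest region, 101228578 to 101229732, had 11.3 and 10.9 after vehicle and 11.5 and 10.5 after TCPOBOP, and the groups overlapped. At 101239881 to 101241039 pileup rose from 3.25 and 3.27 to 5.70 and 5.36 (log2 0.79 ± 0.17, limma adjusted p = 0.00857). At 101212282 to 101213527 it was 1.48 and 1.91 after vehicle and 3.57 and 2.26 after TCPOBOP (log2 0.79 ± 0.21, limma adjusted p = 0.048). Both calls were lost without either vehicle pool and without TCPOBOP pool 1.

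Among the stretches with no gene attached the largest change was log2 1.72, on chromosome 10, 75243464 to 75267610. On chromosome 6, 108408106 to 108468557, 3 regions rose by log2 1.16 to 1.38 and 2 were gained. The call at 108408106 was lost without vehicle pool 1 or without either TCPOBOP pool (log2 0.90 to 1.42 with a pool left out). On chromosome 2 all 3 regions between 145497037 and 145502736 rose, by 1.13 to 1.57, within 5.7 kb. Without vehicle pool 2 the calls at 145500822 and 145502044 were lost, and the former also without TCPOBOP pool 2. With a pool left out their log2 changes ran from 0.86 to 1.40 and from 0.98 to 1.39. Of the 63 higher regions in the 39 runs, 21 were called in each of the 4 fits that left out a pool and 14 in none.

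The female 3 h changes were then read in the other experiments, which share no pool with G91 but do share its estimate of spread per region. In males at 3 h, 254 of the 296 higher regions could be tested. Their median log2 change there was 0.58, 228 changed upward (89.8%, against 47.9% of all regions tested in both), and 71 were called higher, where the share over all such regions was 0.759%. In females at 27 h, 245 of 260 changed upward (94.2%, against 45.7%), with a median of 0.87, and 164 were called, against a share of 4.08%. In males at 27 h, 276 of 287 changed upward (96.2%, against 48.8%), with a median of 0.76, and 147 were called, against 1.67%. None was called lower in any of the 3. As shares of the other lists, the regions called in both were 47.7% of those of males at 3 h, 20.4% of those of females at 27 h and 40.9% of those of males at 27 h. Of the 228 regions tested in all 4 experiments, 191 changed upward in each, where all 228 were upward in G91 by the choice. The same share over all regions was not counted.

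**Figure D5:**
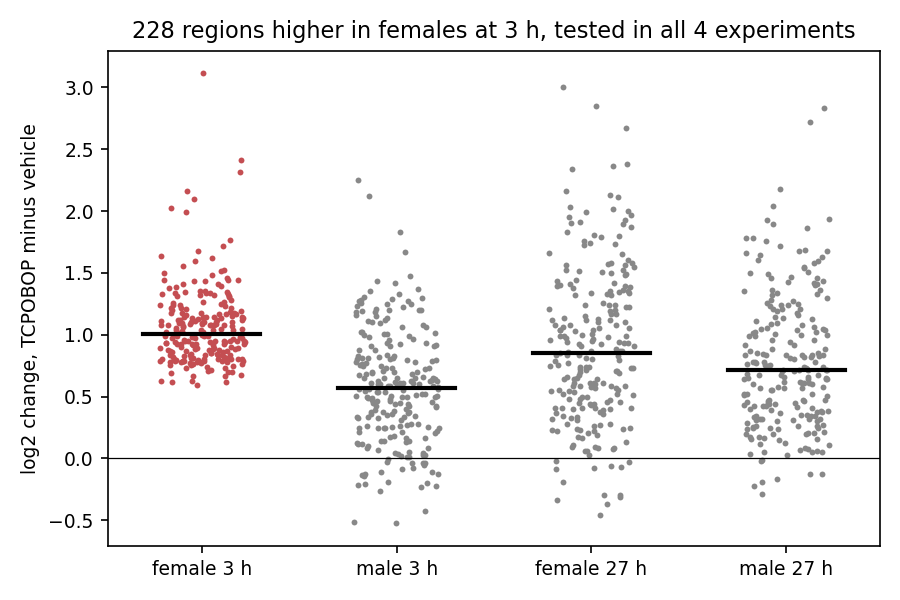
Log2 change after TCPOBOP (y axis) in each of the 4 experiments (x axis) for the 228 regions called higher in females at 3 h and tested in all 4, with black bars at the medians of 1.01, 0.57, 0.86 and 0.72. The regions were chosen on the female 3 h change, which by itself raises that column.

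Of the 17 lower regions, 14 of the 16 testable changed downward in males at 3 h (87.5%, against 52.1% of all regions tested in both), with a median of −0.14, and none was called lower there (0.163% of all). In females at 27 h 10 of 15 changed downward (66.7%, against 54.3%), with a median of −0.18, and 4 were called lower (2.72% of all). In males at 27 h 16 of 17 changed downward (94.1%, against 51.3%), with a median of −0.27, and 1 was called (0.464% of all), that of chromosome 9, 15277359, which was log2 −1.16 and −0.77 at 27 h in females and males.

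The difference between experiments was tested directly. The change differed between females and males at 3 h at 1 of 19621 regions (0.0051%), chromosome 17, 16997376 to 16998452. There pileup was 2.12 and 2.41 after vehicle and 3.09 and 3.81 after TCPOBOP in females (log2 0.63, limma adjusted p = 0.112), while in males it was 4.53 and 3.43 after vehicle and 2.60 and 1.62 after TCPOBOP (log2 −1.13, limma adjusted p = 0.00222). The difference was 1.76 ± 0.27 (limma adjusted p = 0.00953), and it passed the test in 1 of the 4 fits that left out a pool, that without TCPOBOP pool 1. None of the 254 higher regions passed this test, and 100 (39.4%) had an unadjusted p below 0.05, against 10.5% of all regions tested. All 100 had the larger change in the female experiment, on which they were chosen. Sex and experiment cannot be told apart here.

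Between 27 h and 3 h in females the change differed at 38 of 19677 regions (0.193%), with the larger value at 27 h at 21 and at 3 h at 17. Without vehicle pool 1, vehicle pool 2, TCPOBOP pool 1 or TCPOBOP pool 2 of G91 the count was 3, 8, 24 and 97. Of the 38, 3 were among the 296 higher regions at 3 h, of which 260 could be tested for this difference. The 296 were chosen on the 3 h change, which is subtracted here, and the choice by itself lowers their difference. Each of the 3 had a log2 change below 0 at 27 h that did not pass the test. The region at G6pc, 101239881 on chromosome 11, changed by log2 0.79 at 3 h and −0.30 at 27 h, where pileup was 4.09 and 4.99 after vehicle and 4.23 and 3.49 after TCPOBOP (difference −1.09 ± 0.24, limma adjusted p = 0.045). Chromosome 4, 106450842 to 106451611, changed by 1.24 and −0.37, and chromosome 11, 100652221 to 100653312, by 1.34 and −0.41. These 3 differences were each lost in at least 3 of the fits that left out a pool. Time and experiment cannot be told apart here.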

How the data were processed

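DNase-seq peak lists of 16 liver pools were used as deposited, 1 list per pool; 4 of them belong to the experiment described. Fragments released by DNase I digestion of nuclei were sized to 125 to 400 bp on a sucrose gradient and beads, per the labels' protocols. The submitters' processing notes name Bowtie and the build mm9. Per the file headers, peaks were called by the authors in each pool separately with MACS2 2.1.0.20150731, at a q-value of 0.05, and the total tags of each library are given there. The pileup deposited for each peak is a signal that counts the extended tags over its summit, and was not scaled by the authors. The deposited fold enrichment is a ratio to the background around the peak, and −log10 of the p-value and of the q-value are given per peak, per the file headers. In each list of the experiment 458 to 469 peak numbers were absent, and no source used here gives the filter. The heading of 1 female 27 h list carries the code G91, while its command line and peak names carry its own code, which was used.

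From these, peaks overlapping by at least 1 bp were merged over the 16 lists. The highest pileup of a region was divided by total tags and multiplied by 1000000, log2-transformed, and centred on the pool's median over the 18114 autosomal regions with a peak in all 16 lists. limma 3.58.1 in R 4.3.3 (moderated, with a mean trend) was fitted to all 16 pools with 1 mean per group, and p-values were adjusted by the Benjamini-Hochberg method over all regions tested. The fit was checked on simulated data with the same normal spread at every region and pool. In the real data the spread varies between regions, so the check does not give their error rate. Counts used Python 3.11.15 and pandas 2.3.3, and shares have exact Clopper-Pearson intervals from scipy 1.17.1. Peak presence has no test, since no rearrangement of 2 against 2 pools can give a small p-value. With 2 pools a group, p-values rest on a moderated spread between pools, estimated for each region over all 8 groups and not from G91 alone.

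Named regions are the 12 higher and 5 lower regions of smallest p, the 5 higher of largest change, the 8 strong gained and 4 strong lost regions whose poorer rank was best, and runs of at least 3 higher or gained regions. The members, the stretches and the genes attached to them were chosen with earlier results of these data known. Which runs are described in detail was chosen after their values were seen. RefSeq genes of GRCm38.p6 served only to check that all 8 named genes lie on the chromosome of their stretch. Lists of genes were not used, because they need an annotation of mm9, and no sequence is printed for the same reason. Alternatives were other centrings, region sets, pileup measures, a pseudocount of 0.5, chromosome X, list lengths, and leaving out each pool.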

Additional observations from a re-analysis of the deposited data

Results flagged for a closer look

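The changes of 2 experiments were compared by limma's test of the difference, and these regions passed it at an adjusted p below 0.05. None of the causes was tested, and sex or time cannot be told apart from experiment.

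Between females and males at 3 h the number of such regions was 1, at chromosome 17, 16997376, where the female change exceeded the male one by log2 1.76.

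Between 27 h and 3 h in females there were 38. The change at 27 h exceeded that at 3 h by log2 2.15 at chromosome 12, 63870068, by 2.27 at chromosome 13, 22010619, by 1.77 at chromosome 1, 56596479, by 1.49 at chromosome 3, 81230543, and by 1.40 at chromosome 13, 22031982. Leaving out vehicle pool 1 of the 3 h experiment ended the last 3 of these calls, and at chromosome 3 so did leaving out vehicle pool 2, with a limma adjusted p of up to 0.0817, 0.075 and 0.108. The first 2 kept theirs without any 1 of the 4 pools. The female vehicle pools themselves differed between the experiments at these regions. At chromosome 12, 63870068, vehicle pileup was 2.83 and 3.52 per 1000000 tags at 3 h and 1.36 and 0.942 at 27 h, and TCPOBOP pileup was 3.96 and 4.96 at 3 h and 7.98 and 7.12 at 27 h. At chromosome 13, 22010619, vehicle pileup was 3.01 and 2.65 at 3 h and 0.489 and 0.610 at 27 h, and at chromosome 3, 81230543, it was 8.97 and 11.1 at 3 h and 2.55 in both pools at 27 h.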

How the results depend on the processing

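The higher and lower regions numbered 138 and 4 without centring, 185 and 7 with the spread from the 4 pools only, and 159 and 4 when the prior had no mean trend; the lower ones numbered 10 where a peak in 1 pool of each group was enough and 11 with peaks merged over the 4 lists. Leaving out 1 pool gave 125 to 187 higher and 1 to 53 lower regions. It also gave 2551 to 3684 gained, 1080 to 1517 lost, 213 to 345 strong gained and 74 to 103 strong lost regions, where the reduced group counts 1 list only. The causes of these shifts were not tested. With lists of equal length 889 regions were gained and 690 lost, and within the first 10000 peaks 9 were strong gained and 0 strong lost.

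The sex difference was called at 0 regions without centring (where its median was log2 −0.19 instead of 0.03) and without the trend, at 3 with the mean pileup of a region and at 0 to 3 without 1 pool; in limma 2062 regions had an unadjusted p below 0.05. The time difference was called at 16 without centring, 72 centred on the 5000 strongest regions, 2 without the trend, 22 with 1 pool of each group, 66 with the replicate block and 3 to 97 without 1 pool. The other counts for G91 and for these differences stayed within 1.5 times the reported ones. Calls in the other experiments moved further. Males at 3 h had 159 higher regions, 289 without centring and 41 without the trend, so the 71 shared with G91 cannot all be called without the trend. Without centring the lower regions at 27 h went from 643 to 294 in females and from 126 to 47 in males.

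Pool numbers did not pair the pools: the differences between pools 1 and 2 of the 2 groups correlated at r = 0.0246 across 22398 regions, which are not independent. With the replicate block 314 regions were higher, 23 lower, 1 differed by sex and 66 by time. Single named regions kept their side of the threshold in 243 of 268 cases, and the 25 that did not were all among the 5 lower regions. Pools of 3 to 5 mice, 2 a group, hide variation between mice, and a site with no called peak may hold signal below the calling limit.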
